A study of Mus musculus with 16 samples.

Results

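Oxidative phosphorylation is carried out by large protein complexes of the inner mitochondrial membrane whose subunits are encoded by 2 genomes, that of the nucleus and that of the mitochondrion. The genes described here are those of the raw-count table whose symbols start with mt-Nd, mt-Co, mt-Cyt or mt-Atp, with Ndufa, Ndufb, Ndufc, Ndufs or Ndufv, with Sdha to Sdhd, with Uqcr, with Cox4 to Cox8 or with Atp5, pseudogenes left out. The rule found 107 of the 55414 genes, of which 13 were mitochondrially encoded and 94 nuclear-encoded. Of the nuclear-encoded genes, 83 encode subunits of the complexes. Another 8, Ndufaf1 to Ndufaf8, match by their letters but encode assembly factors of complex I, and 3 more are not counted as subunits, namely Ndufa4l2 (a paralog of Ndufa4), Cox7a2l (a factor that joins complexes III and IV) and Atp5s (coupling factor B of ATP synthase). The fit held 102 of the 107 genes and 78 of the 83 nuclear-encoded subunits. Not tested for low counts were Cox6a2, with 2 to 18 counts per library, Cox8b, with 0 to 2, Cox8c, with 0 to 1, and Cox7b2 and another identifier of Atp5o, each with 0 in all 16 libraries. Cox6a2 and Cox8b are the heart and skeletal muscle isoforms of their subunits.

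RNA was sequenced from mouse cardiac fibroblasts in culture, the cells that make most of the connective tissue of the heart. The 4 groups were Cre cells with TGF-beta, GFP cells with TGF-beta, Cre cells and GFP cells, with 4 libraries each. Cre cells had been given an adenovirus carrying Cre recombinase to force deletion of Has2, a synthase of hyaluronan, and GFP cells a control adenovirus carrying green fluorescent protein. TGF-beta is a growth factor that turns fibroblasts into contractile myofibroblasts. All cells were at passage 2, had been grown in serum medium with basic fibroblast growth factor, were starved of serum for 24 h, received virus for 5 h and were collected after 48 h of stimulation. The dose named is 20 ng/mL, in a phrase that joins basic fibroblast growth factor with TGF-beta, so what the cells without TGF-beta received is not settled by it. The treatment protocol describes Has2 fl/fl mice, while the genotype label of every library reads wild type C57BL/6J, and the sources used here do not settle which holds. The replicate number marks a cell preparation that gave 1 library to each group, preparations 1 and 4 from males and 2 and 3 from females. Whether a preparation pooled several hearts and the age of the mice are not stated. A further virus of the protocol, for Has2 overexpression, was not analysed here.

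In the respiratory chain, complex I (NADH dehydrogenase) and complex II (succinate dehydrogenase) feed electrons to ubiquinone, complex III passes them to cytochrome c, and complex IV (cytochrome c oxidase) passes them to oxygen. Complexes I, III and IV pump protons out of the matrix, and complex V (ATP synthase) makes ATP as the protons return. Mitochondrial DNA encodes subunits of every complex other than complex II, as parts of long transcripts from both strands, so the nucleus and the mitochondrion must supply subunits that fit together. Heart muscle is among the tissues richest in these complexes, whereas fibroblasts in culture draw much of their energy from glycolysis.

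Depth ranged from 17.9 to 48.7 M counts per library, and preparation 4 stood apart, with the highest TMM scaling factor of every group (1.07 to 1.12, against 0.908 to 1.03 in the other 12 libraries). Has2, counted over the whole gene, averaged 16.5 ± 6.32 CPM in Cre cells with TGF-beta and 16.8 ± 5.67 CPM in GFP cells with TGF-beta, and 14.7 ± 1.38 CPM in Cre cells and 18.7 ± 3.27 CPM in GFP cells (SD, n = 4 each). CPM are counts per M counts of the library after TMM scaling. Neither difference of Has2 passed edgeR's quasi-likelihood test (log2 differences of -0.03 and -0.35, adjusted p = 0.9996 and 0.9997), and the counts do not separate the floxed exon from the rest of the gene. All 10 fibroblast markers were detected, with a summed level of 19764 to 43883 CPM in Cre cells with TGF-beta, 22738 to 48743 in GFP cells with TGF-beta, 24575 to 49287 in Cre cells and 25744 to 52165 in GFP cells. Of 10 cardiomyocyte markers, 2 passed the filter on low counts, and Actc1 and Nppa had no count in any library.

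Some mitochondrial subunit genes have near-identical copies in the nuclear genome and are shown beside those copies. Of the 13 genes, 5 were matched over at least 90% of their length by an annotated nuclear pseudogene at 98% identity or more, all 5 on chromosome 1, while 8 were not. Of the 5, 4 are identical to their copy over the aligned bases. The pair that differs is mt-Nd3, a subunit of complex I at chrM:9459-9806 on the plus strand, and the pseudogene Gm28438 at chr1:24612775-24613119 on the minus strand (GENCODE M21, GRCm38), which differ by 1 base over 345 aligned bases. For contrast, mt-Cytb, the haem-bearing subunit of complex III at chrM:14145-15288, and the less similar pseudogene Gm11410 at chr4:80003989-80005131 differ by 81 of 1142 aligned bases. Shown are bases 1 to 100 of the first pair and bases 523 to 622 of the other, counted from the start of the mitochondrial gene, with the differing bases in capitals.
mt-Nd3: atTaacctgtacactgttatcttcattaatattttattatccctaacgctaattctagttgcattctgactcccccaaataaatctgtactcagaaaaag
Gm28438: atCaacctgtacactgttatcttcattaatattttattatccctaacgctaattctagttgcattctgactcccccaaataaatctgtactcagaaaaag
mt-Cytb: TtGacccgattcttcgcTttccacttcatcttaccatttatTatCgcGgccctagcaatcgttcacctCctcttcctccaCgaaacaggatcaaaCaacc
Gm11410: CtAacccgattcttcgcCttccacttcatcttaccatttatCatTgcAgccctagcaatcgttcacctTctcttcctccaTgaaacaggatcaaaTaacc
In these windows mt-Nd3 and Gm28438 differ by T3C alone, and mt-Cytb and Gm11410 by 9 bases, T523C, G525A, T540C, T564C, C567T, G570A, C591T, C603T and C618T.

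The 5 copied genes, mt-Co2, mt-Co3, mt-Atp6, mt-Nd3 and mt-Nd4l, were counted at far lower levels than the others. Per length, over all 16 libraries, they and mt-Atp8 averaged 2.75 to 18.4 RPKM (counts per kilobase of exon per M counts), whereas the 7 remaining genes averaged 57.7 to 1698 RPKM, with a median of 536. mt-Co1, mt-Co2 and mt-Co3 encode the catalytic core of complex IV and are cut from the same strand's transcript, yet mt-Co1 averaged 1698 RPKM against 18.4 RPKM for mt-Co2 and 9.92 RPKM for mt-Co3. Raw counts of a copied gene and of its pseudogene were alike in size, with 159 to 602 counts per library for mt-Co2 and 153 to 496 for Gm28661, and 91 to 324 for mt-Co3 and 87 to 263 for Gm28437. mt-Co1 is matched over 31.3% of its length by Gm29216 and mt-Nd4 over 63.6% by Gm28439. mt-Atp8, at 13.9 RPKM, has no near-identical copy in the annotation and shares 43 bases with mt-Atp6. Copies outside the annotation were not searched for. The sources used here do not say how reads that fit several places were counted. Whether reads of the 5 copied genes were lost to or shared with the copies was not tested, nor was the part of the copies in their low levels or in any difference between groups. None of the 83 nuclear-encoded subunits was matched over most of its length, and 14 were matched over a shorter stretch.

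**Figure D1:**
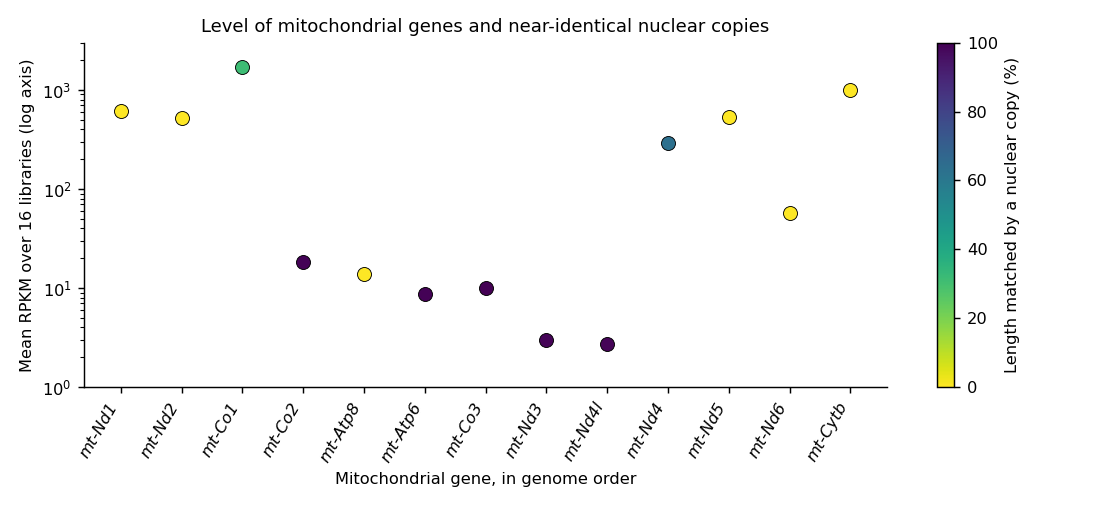
Mean RPKM over the 16 libraries (vertical log axis) of each mitochondrially encoded subunit gene (horizontal axis, in genome order). The colour of a point gives the percentage of the gene's length matched at 98% identity or more by a nuclear pseudogene, and the 5 genes matched over most of their length, with mt-Atp8, lie at 2.75 to 18.4 RPKM, below the 7 others.

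The nuclear-encoded subunits tested averaged 0.995 to 219 RPKM with a median of 40.9, and Atp5b, the catalytic beta subunit of ATP synthase, was the highest. Summed over the nuclear-encoded subunits, the level was 7319, 8247, 6669 and 9475 CPM in Cre cells with TGF-beta and 7222, 7583, 6942 and 7680 CPM in GFP cells with TGF-beta (preparations 1 to 4). In cells without TGF-beta it was 6628, 6609, 6063 and 6713 CPM in Cre cells and 5885, 6479, 5724 and 5948 CPM in GFP cells. The libraries of GFP cells with TGF-beta all lay above those of GFP cells, while among Cre cells preparation 3 with TGF-beta, at 6669 CPM, lay below preparation 4 without it, at 6713 CPM. Within a preparation the sum with TGF-beta was 1.22 ± 0.147 times that without it in Cre cells and 1.23 ± 0.0501 times in GFP cells (SD, n = 4 preparations each), and above 1 in all 4 preparations of both. In bulk RNA, fewer cells of a type and less RNA per cell cannot be told apart.

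The sum over the 13 mitochondrially encoded subunits moved further in 3 of the 4 preparations. It was 8731, 6313, 8939 and 6012 CPM in Cre cells with TGF-beta and 8833, 7147, 7691 and 6719 CPM in GFP cells with TGF-beta. Without TGF-beta it was 4575, 4782, 4218 and 6253 CPM in Cre cells and 5023, 4239, 4559 and 7185 CPM in GFP cells. In preparations 1 to 3 the libraries with TGF-beta all lay above those without it. In preparation 4, which had the highest sum of both groups without TGF-beta and the lowest of both groups with it, the order was turned round. The within-preparation ratio was thus 1.91, 1.32 and 2.12 in Cre cells and 1.76, 1.69 and 1.69 in GFP cells for preparations 1 to 3, and 0.961 and 0.935 for preparation 4. mt-Co1 alone supplied 37.2% to 45.2% of this sum, and all genes of the mitochondrial genome took 0.459% to 0.926% of the counts of a library.

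The balance between the genomes, as mitochondrial over nuclear summed CPM, was 1.19, 0.766, 1.34 and 0.635 in Cre cells with TGF-beta and 1.22, 0.943, 1.11 and 0.875 in GFP cells with TGF-beta. It was 0.690, 0.724, 0.696 and 0.932 in Cre cells and 0.854, 0.654, 0.796 and 1.21 in GFP cells. The groups overlapped in both comparisons of TGF-beta with none, since preparation 4 had the lowest ratio of each group with TGF-beta and the highest of each group without it. For Cre cells the mean ratio was 0.983 ± 0.337 with TGF-beta, against 0.760 ± 0.115 without it, and for GFP cells 1.04 ± 0.158 with TGF-beta, against 0.878 ± 0.235 without it (SD, n = 4 each).

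**Figure D2:**
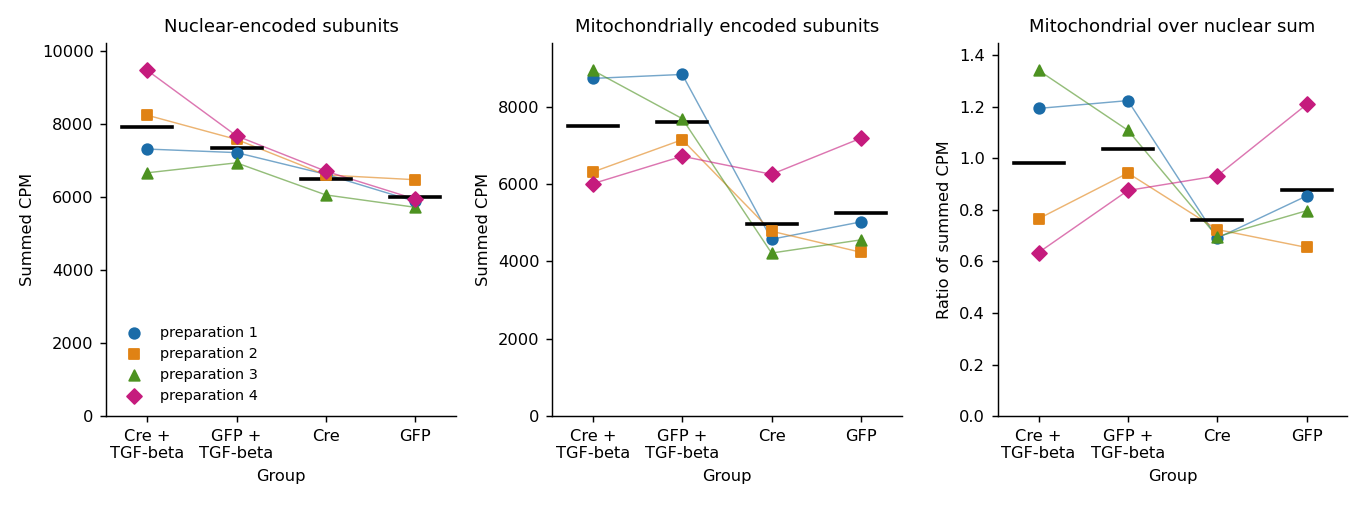
Summed CPM of the nuclear-encoded subunits, summed CPM of the 13 mitochondrially encoded subunits and the ratio of the mitochondrial to the nuclear sum (vertical axes), by library. Groups run from Cre cells with TGF-beta, GFP cells with TGF-beta and Cre cells to GFP cells, colours mark the 4 preparations and black bars the group means. Preparation 4 has the highest mitochondrial sums without TGF-beta (6253 and 7185 CPM) and the lowest with it (6012 and 6719 CPM).

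The question of the TGF-beta comparisons is how its addition changed these genes in each kind of cell. With TGF-beta the mitochondrially encoded subunits rose at 10 of 13 genes in Cre cells and at 5 of 13 in GFP cells, and none fell (edgeR's quasi-likelihood test, adjusted p under 0.05). Over all 15285 genes tested, 14% were called higher and 16.3% lower in Cre cells with TGF-beta, and 13.8% higher and 15.3% lower in GFP cells with TGF-beta. The median log2 difference of the 13 genes was 0.77 (range 0.44 to 1.17) in Cre cells and 0.57 (0.33 to 0.91) in GFP cells, against medians over all genes of 0.02 and -0.02. The 5 genes called in GFP cells, mt-Nd1, mt-Nd2, mt-Nd3, mt-Nd4 and mt-Co2, were all among the 10 called in Cre cells. Of the 8 genes without a near-complete copy in the annotation, 6 rose in Cre cells and 3 in GFP cells. The 6 include mt-Atp8, whose level lay within the range of the copied genes.

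mt-Nd1 and mt-Nd2 encode subunits of the membrane arm of complex I. mt-Nd1 was counted at 840.1, 673, 781 and 849 CPM in Cre cells with TGF-beta, against 356, 353, 299.6 and 588 CPM in Cre cells. GFP cells with TGF-beta had mt-Nd1 at 791, 633, 662 and 782 CPM, against 367, 309, 339.8 and 664 CPM in GFP cells. Each library with TGF-beta exceeded its own preparation without it, and the groups overlapped in GFP cells alone, where preparation 4 without TGF-beta was above preparations 2 and 3 with it. The log2 difference was 0.98 ± 0.24 in Cre cells (SE, edgeR's adjusted p = 0.0056) and 0.77 ± 0.23 in GFP cells (adjusted p = 0.022). mt-Nd2 had 737, 509, 768 and 499.7 CPM in Cre cells with TGF-beta, against 429.6, 418, 379.9 and 476 CPM in Cre cells. mt-Nd2 in GFP cells with TGF-beta stood at 747, 659.7, 698 and 616 CPM, against 460.2, 405, 401 and 547 CPM in GFP cells. Neither pair of groups overlapped, although preparation 4 gave the narrowest gap in both, and the log2 differences were 0.56 ± 0.15 (edgeR's adjusted p = 0.011) and 0.59 ± 0.15 (adjusted p = 0.0083).

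mt-Cytb had 1638, 1125, 1634 and 1350.1 CPM in Cre cells with TGF-beta, against 753, 784, 662 and 1177 CPM in Cre cells. The log2 difference of 0.77 ± 0.22 passed edgeR's test in Cre cells (adjusted p = 0.016), and preparation 4 without TGF-beta lay above preparation 2 with it. In GFP cells the log2 difference of mt-Cytb was 0.57 (edgeR's adjusted p = 0.064). mt-Co1, the gene with the most counts of the 13, had 3592, 2583, 3479 and 2235 CPM in Cre cells with TGF-beta, against 2052, 2160.4, 1875 and 2647 CPM in Cre cells. Its groups overlapped because preparation 4 was lower with TGF-beta, and neither log2 difference, 0.44 ± 0.19 in Cre cells and 0.48 ± 0.19 in GFP cells, passed edgeR's test (adjusted p = 0.087 and 0.067). mt-Nd5, another subunit of that arm, had 1267, 971, 1657 and 573 CPM in Cre cells with TGF-beta, against 671, 736, 741 and 918 CPM in Cre cells. Preparation 4 again ran against the others, and the log2 differences of mt-Nd5, 0.54 and 0.42, did not pass (edgeR's adjusted p = 0.13 and 0.25). mt-Nd4 had 579, 365, 543 and 429.5 CPM in Cre cells with TGF-beta, against 269, 289, 214 and 386 CPM in Cre cells. It rose by 0.73 ± 0.20 in Cre cells and 0.65 ± 0.20 in GFP cells (edgeR's adjusted p = 0.014 and 0.026), with overlap in both through preparation 4 without TGF-beta.

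mt-Nd6 is the gene of the 13 that is read from the other strand, at chrM:13552-14070 on the minus strand. It had 39.6, 36.5, 39 and 32.3 CPM in Cre cells with TGF-beta, against 22.5, 21.5, 26.5 and 29.4 CPM in Cre cells, without overlap (log2 difference 0.56 ± 0.14, edgeR's adjusted p = 0.0075). The values of mt-Nd6 in GFP cells with TGF-beta were 35.2, 29.2, 37.2 and 28.9 CPM, against 20.5, 26.1, 23.5 and 31.2 CPM in GFP cells, where the groups overlapped and the log2 difference of 0.37 ± 0.14 did not pass (edgeR's adjusted p = 0.067). Among the copied genes, mt-Co2 had 17.2, 22.7, 14 and 16.9 CPM in Cre cells with TGF-beta, against 9.17, 9.01, 10 and 12 CPM in Cre cells. It rose in both kinds of cell without overlap, by 0.82 ± 0.16 and 0.67 ± 0.16 on the log2 scale (edgeR's adjusted p = 0.0013 and 0.0057). mt-Atp6, which encodes the subunit of ATP synthase that carries the proton path, showed the largest log2 difference of the 13 genes in Cre cells, 1.17 ± 0.27 (edgeR's adjusted p = 0.0040). Its counts there were few, at 7.43, 11, 7.91 and 10.1 CPM with TGF-beta against 3.21, 3.21, 3.04 and 6.66 CPM without. In GFP cells mt-Atp6 had a log2 difference of 0.39 (edgeR's adjusted p = 0.30), and the difference between the responses, 0.78 on the log2 scale, did not pass its own test (edgeR's adjusted p = 1.00). mt-Nd3 rose by 0.86 and 0.91 (edgeR's adjusted p = 0.025 and 0.022). mt-Co3 and mt-Atp8 rose in Cre cells, by 0.67 and 1.11 (adjusted p = 0.041 and 0.019), and mt-Nd4l passed in neither (adjusted p = 0.15 and 0.26).

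These counts turned on the preparations. Without preparation 4 in any group, 13 of the 13 genes were called in Cre cells and 12 in GFP cells. Without preparation 1 there were 2 and 0 calls, without preparation 2 there were 5 and 1, and without preparation 3 there were 3 and 1. Of all genes, 6.44% in Cre cells and 6.67% in GFP cells were called higher without preparation 1, 8.33% and 8.8% without preparation 2, 8.91% and 9% without preparation 3, and 20.2% and 18.6% without preparation 4. The median within-preparation log2 difference over the 13 genes was 0.92, 0.84, 1.02 and 0.15 in Cre cells for preparations 1 to 4 and 0.68, 0.83, 0.80 and -0.05 in GFP cells. In preparation 4, 9 of 13 genes were above 0 in Cre cells and 5 of 13 in GFP cells, while in the other preparations all 13 were. Leaving out single libraries gave 6 calls without the Cre library of preparation 1, and in GFP cells 2, 3, 2 and 8 calls without the GFP libraries of preparations 1 to 4 and 3 without the GFP library with TGF-beta of preparation 1. Over all genes, 1466 of 15528 were called higher in that Cre fit, against 2134 of 15285 with all libraries. In those GFP fits the numbers were 1536 of 15532, 1779 of 15515, 1678 of 15549, 2219 of 15482 and 1844 of 15562, against 2105 of 15285. With the preparation as a block, 10 genes were called in Cre cells and 8 in GFP cells, where all-gene shares called higher were 25.2% and 22.6%. With a further correction for transcript length and GC content, which is 31.9% to 41.1% in these genes against a median of 50.2% in the nuclear-encoded subunits, 5 genes were called in Cre cells, with a median of 0.30, and 9 in GFP cells, with a median of 0.57. Under that correction 34.9% of all genes were called higher and 22.7% lower in Cre cells, and 34.4% and 22.2% in GFP cells.

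**Figure D3:**
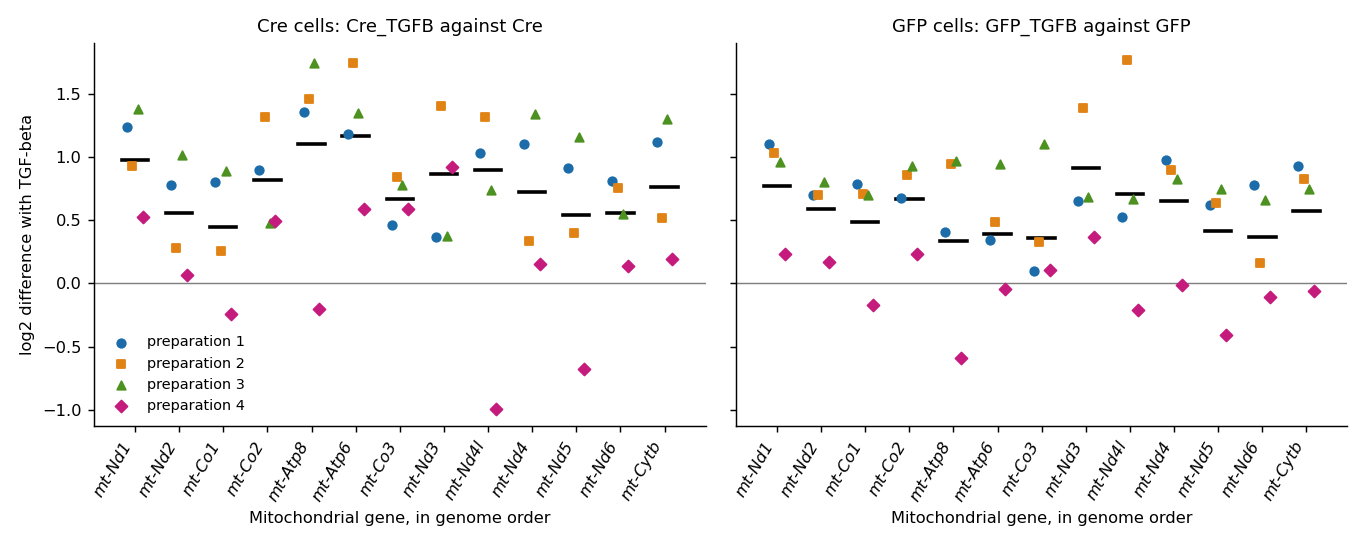
Log2 difference within each preparation, with TGF-beta minus without it (vertical axis), of the 13 mitochondrially encoded subunit genes (horizontal axis, in genome order) in Cre cells (left) and GFP cells (right). Symbols and colours mark the preparations, and bars the fitted log2 difference over the 4. Preparation 4 lies below the others at most genes, with a median of 0.15 in Cre cells and -0.05 in GFP cells.

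The nuclear-encoded subunits showed smaller differences. Of 78 tested, 21 rose and 3 fell in Cre cells with TGF-beta, and 17 rose and 2 fell in GFP cells with TGF-beta. In Cre cells 26.9% of the subunits were thus called higher and 3.85% lower, beside 14% and 16.3% of all genes. In GFP cells 21.8% were called higher and 2.56% lower, beside 13.8% and 15.3% of all genes. The median log2 difference was 0.27 in Cre cells and 0.23 in GFP cells, with 71 (91%) and 69 (88.5%) above 0, against 51.3% and 48.6% of all genes. The subunits that rose in both kinds of cell numbered 16, of 21 in Cre cells and 17 in GFP cells. For this overlap, as for those of the mitochondrially encoded genes and of complex III, the overlap over all genes is not given here. In 4 of 4 preparations, 43 subunits (55.1%) were higher in Cre cells and 61 (78.2%) in GFP cells, against 25.5% and 28.2% of all genes. The groups did not overlap, with higher values under TGF-beta, for 14 subunits (17.9%) in Cre cells and 30 (38.5%) in GFP cells, against 12.5% and 15.1% of all genes.

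With the preparation as a block, 44 subunits rose and 3 fell in Cre cells and 41 rose and 3 fell in GFP cells, where 25.2% and 22.6% of all genes were called higher and 27.3% and 26.5% lower. The median of 2711 genes of similar transcript length (738 to 1838 bases) was 0.10 in Cre cells and 0.07 in GFP cells, below the medians of the subunits. In Cre cells the count of 24 calls fell to 13 without the Cre library of preparation 1 or 2 or the Cre library with TGF-beta of preparation 4. Over all genes, 1466 of 15528, 1599 of 15527 and 1996 of 15480 were called higher in these fits, and 2006, 2037 and 2442 lower. With all libraries, 2134 of 15285 were called higher and 2495 lower. The count of subunits was 14 without the Cre library of preparation 3 or the Cre library with TGF-beta of preparation 2, and 43 without the Cre library with TGF-beta of preparation 3. Over all genes, 1801 of 15544, 1808 of 15508 and 2105 of 15533 were called higher there, and 2245, 2187 and 2292 lower. In GFP cells the count of 19 calls was 12 without the GFP library of preparation 1 and 14 to 21 without any other single library. Over all genes, 1536 of 15532 were called higher and 1825 lower without that library, against 2105 and 2340 of 15285 with all libraries. Without any other single library 1678 to 2219 were called higher and 1942 to 2517 lower. Without preparation 1, 2, 3 or 4 in every group the counts were 9, 9, 16 and 20 in Cre cells and 5, 11, 10 and 22 in GFP cells, to be read against the shares of all genes given above for the same fits.

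**Figure D4:**
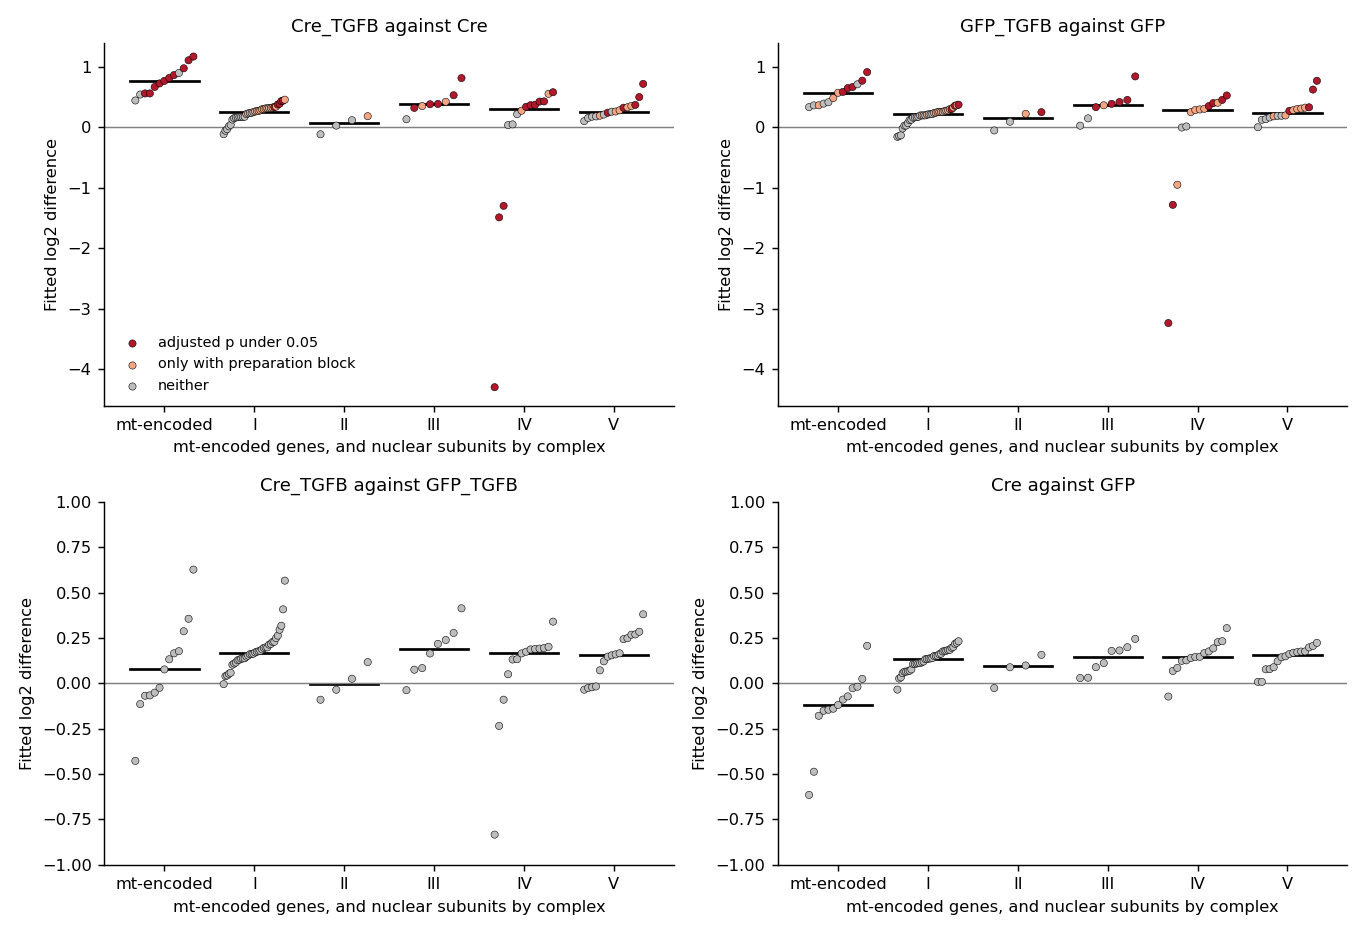
Fitted log2 difference of every subunit tested (vertical axis), by complex and genome (horizontal axis), in 4 comparisons, TGF-beta against none in Cre and GFP cells and Cre against GFP with and without TGF-beta. Red points passed edgeR's test, pale points passed it with the preparation as a block alone, grey points passed neither, and bars are medians. The mitochondrially encoded genes have the highest medians with TGF-beta (0.77 in Cre cells and 0.57 in GFP cells), and no point is red in the Cre against GFP comparisons.

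In complex I, 5 of 36 nuclear-encoded subunits rose in Cre cells and 3 in GFP cells, and none fell, with median log2 differences of 0.26 and 0.21. These shares of 13.9% and 8.33% were near or below the 14% and 13.8% of all genes called higher, so the count is not a result about complex I. Of the 7 core subunits, which between them hold the flavin and the iron-sulphur clusters, 2 rose in each kind of cell, Ndufs1 and Ndufs8. Ndufs1, the largest subunit, had 80.4, 79.7, 83.2 and 73.5 CPM in Cre cells with TGF-beta, against 62.4, 55, 61.2 and 63.4 CPM in Cre cells. GFP cells with TGF-beta had Ndufs1 at 79, 70.5, 77.9 and 78.1 CPM, against 60.2, 55.4, 64.3 and 67.8 CPM in GFP cells. No library with TGF-beta fell within the range of those without it, and the log2 differences were 0.39 ± 0.08 and 0.30 ± 0.08 (SE, edgeR's adjusted p = 0.0025 and 0.013). Ndufab1, the acyl carrier protein of the mitochondrion, had 55.7, 44.8, 53.1 and 59 CPM in Cre cells with TGF-beta, against 40.3, 39, 37.6 and 39.6 CPM in Cre cells. Without overlap in either kind of cell, Ndufab1 rose by 0.44 and 0.36 on the log2 scale (edgeR's adjusted p = 0.0019 and 0.0077). Ndufv1, which binds NADH, differed by 0.16 in Cre cells and 0.24 in GFP cells on the log2 scale and passed neither test (edgeR's adjusted p = 0.31 and 0.14). With the preparation as a block, 18 and 14 of the 36 (50% and 38.9%) were called higher, where 25.2% and 22.6% of all genes were, and Ndufv1 in GFP cells was among them (adjusted p = 0.034).

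Complex II has no mitochondrially encoded subunit, and its medians, 0.07 in Cre cells and 0.16 in GFP cells, were the lowest of the 5 complexes. Sdha, its flavoprotein, had 192, 184, 195 and 185 CPM in Cre cells with TGF-beta, against 192, 195, 183 and 172 CPM in Cre cells. Sdha in GFP cells with TGF-beta stood at 202, 204, 203 and 196 CPM, against 197, 198, 189 and 169.9 CPM in GFP cells. Groups overlapped in both kinds of cell, with log2 differences of 0.03 ± 0.07 and 0.09 ± 0.07 (SE, edgeR's adjusted p = 0.79 and 0.37). Sdhd, a membrane anchor, was the subunit of complex II that passed, in GFP cells (log2 difference 0.25, edgeR's adjusted p = 0.037), and it differed by 0.12 in Cre cells (adjusted p = 0.31). The other anchor, Sdhc, differed by -0.11 and -0.05, and Sdhb, the iron-sulphur subunit, by 0.18 and 0.22, the last pair called with the block alone (adjusted p = 0.038 and 0.014). In Cre cells 0 of 4 passed edgeR's test, 0 had an unadjusted p under 0.05, and 1 passed with the block. The shares of all genes called higher were 14% in Cre cells and 13.8% in GFP cells, and 25.2% and 22.6% with the block. With 4 genes, these counts are not a result about complex II.

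Complex III had the largest share called higher, 5 of 8 nuclear-encoded subunits (62.5%) in each kind of cell, and the same 5, with medians of 0.38 in each. Of all genes 14% were called higher in Cre cells and 13.8% in GFP cells. Uqcrq, a small subunit beside cytochrome b, had 128, 167, 102 and 179.6 CPM in Cre cells with TGF-beta, against 80.2, 90.3, 70.9 and 87.1 CPM in Cre cells. The values of Uqcrq in GFP cells with TGF-beta were 119, 143, 107 and 127 CPM, against 62.3, 83.4, 58.8 and 72.7 CPM in GFP cells. The groups were apart in both, and its log2 differences of 0.81 ± 0.17 and 0.84 ± 0.17 were the largest rises among nuclear-encoded subunits (edgeR's adjusted p = 0.0018 and 0.0014). Uqcrc1, a core protein, had 152, 154, 148 and 209.6 CPM in Cre cells with TGF-beta, against 126, 128, 123 and 132 CPM in Cre cells, and rose by 0.38 ± 0.11 (edgeR's adjusted p = 0.016). GFP cells with TGF-beta had Uqcrc1 at 145, 162, 148 and 174 CPM, against 114, 130.5, 118 and 109 CPM in GFP cells, and rose by 0.42 ± 0.11 (edgeR's adjusted p = 0.0099). Uqcrc2, Uqcrfs1 (the Rieske iron-sulphur protein) and Uqcr10 rose by 0.32 to 0.53 on the log2 scale in both kinds of cell.

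In complex V, 5 of 16 subunits rose in Cre cells and 4 in GFP cells, and none fell, with medians of 0.26 and 0.23. The shares called higher were 31.2% and 25%, against 14% and 13.8% of all genes, while 16.3% and 15.3% of all genes were called lower. Atp5b had 1086, 1027, 1027 and 1237 CPM in Cre cells with TGF-beta, against 737, 770.2, 796 and 790.1 CPM in Cre cells. Atp5b in GFP cells with TGF-beta stood at 1094, 1136, 1066 and 1188 CPM, against 671, 756, 722 and 759 CPM in GFP cells. The groups were far apart, with log2 differences of 0.50 ± 0.09 and 0.62 ± 0.09 (SE, edgeR's adjusted p = 0.00044 and 6.7e-05), and in GFP cells its adjusted p was the smallest of the nuclear-encoded subunits. Atp5a1, the alpha subunit that forms the catalytic ring with it, rose by 0.24 and 0.27 (edgeR's adjusted p = 0.029 and 0.017). Of the 3 genes that encode the same rotor subunit c and differ in their import sequences, Atp5g1 had 98.1, 107, 84.4 and 147 CPM in Cre cells with TGF-beta, against 60.7, 63.7, 63.1 and 77.5 CPM in Cre cells. Atp5g1 rose by 0.72 ± 0.15 in Cre cells and 0.77 ± 0.15 in GFP cells (edgeR's adjusted p = 0.0018 and 0.0011), and Atp5g3 by 0.32 and 0.33 (adjusted p = 0.037 and 0.034). Atp5g2 differed by 0.16 and 0.19 and passed neither test (edgeR's adjusted p = 0.31 and 0.23).

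Complex IV had members called in each direction. Of 14 nuclear-encoded subunits tested, 6 rose and 3 fell in Cre cells with TGF-beta, and 4 rose and 2 fell in GFP cells with TGF-beta. The shares called higher were 42.9% and 28.6%, against 14% and 13.8% of all genes. Those called lower, 21.4% and 14.3%, were near the 16.3% and 15.3% of all genes. Cox5a, a matrix-side subunit, had 91.2, 91.3, 84.4 and 120.2 CPM in Cre cells with TGF-beta, against 60.9, 64.4, 61.7 and 71.8 CPM in Cre cells, without overlap. Those that rose are widely expressed subunits, with Cox5a by 0.58 and 0.45 on the log2 scale (edgeR's adjusted p = 0.0018 and 0.0090), Cox6a1 by 0.43 and 0.40 (adjusted p = 0.013 and 0.020) and Cox7a2 by 0.43 and 0.53 (adjusted p = 0.036 and 0.012). Those that fell, Cox4i2, Cox6b2 and Cox7a1, are isoforms known from particular tissues, namely lung and vessel wall, testis, and heart and skeletal muscle.

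Cox4i2, the isoform of subunit 4 known for its response to low oxygen, was nearly lost with TGF-beta. It had 0.0973, 0.527, 0.158 and 0.0401 CPM in Cre cells with TGF-beta, against 5.41, 5.62, 2.76 and 2.60 CPM in Cre cells, which were 3, 14, 4 and 1 counts against 60 to 273. The values of Cox4i2 in GFP cells with TGF-beta were 0.279, 0.431, 0.702 and 0.110 CPM, against 3.72, 5.08, 2.98 and 2.23 CPM in GFP cells. Every library with TGF-beta lay below every library without it, and the log2 differences were -4.30 ± 0.59 in Cre cells and -3.24 ± 0.56 in GFP cells (SE, edgeR's adjusted p = 7.5e-05 and 0.00055). Cox4i1, the common isoform, had 262, 345, 234 and 398 CPM in Cre cells with TGF-beta, against 257, 273, 229 and 264 CPM in Cre cells, with overlap. Its log2 differences of 0.28 ± 0.14 and 0.29 ± 0.14 did not pass (edgeR's adjusted p = 0.15 in each), but did with the preparation as a block (adjusted p = 0.036 and 0.024).

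Ndufa4l2, also known for its induction by low oxygen, encodes a paralog of the complex IV subunit Ndufa4. It averaged 84.9 RPKM over all libraries, mostly through those without TGF-beta. Ndufa4l2 had 23.8, 24.3, 11.3 and 3.57 CPM in Cre cells with TGF-beta, against 210.1, 195, 166 and 132 CPM in Cre cells. GFP cells with TGF-beta had Ndufa4l2 at 22.1, 24, 18.1 and 3.29 CPM, against 182, 191, 165 and 115 CPM in GFP cells. The groups were apart in both, preparation 4 was lowest in all 4 groups, and the log2 differences were -3.48 ± 0.57 and -3.27 ± 0.56 (SE, edgeR's adjusted p = 0.00031 and 0.00050). Ndufa4 had 67.5, 74.9, 60.9 and 93.8 CPM in Cre cells with TGF-beta, against 74.6, 70.1, 64.9 and 79.8 CPM in Cre cells. Ndufa4 in GFP cells with TGF-beta stood at 61.3, 62.4, 63 and 73.8 CPM, against 61.7, 63.4, 60.5 and 72.4 CPM in GFP cells. These ranges overlapped and neither log2 difference, 0.04 ± 0.12 and 0.01 ± 0.12, passed edgeR's test (adjusted p = 0.84 and 0.94).

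The remaining isoforms that fell were rare. Cox6b2 had 1.62, 1.17, 0.83 and 0.842 CPM in Cre cells with TGF-beta, against 3.42, 3.87, 1.7 and 1.99 CPM in Cre cells, without overlap (log2 difference -1.30 ± 0.45, edgeR's adjusted p = 0.040). The values of Cox6b2 in GFP cells with TGF-beta were 1.62, 1.67, 1.17 and 0.329 CPM, against 4.21, 3.78, 2.05 and 1.52 CPM in GFP cells, with overlap through preparation 4 (log2 difference -1.28 ± 0.46, edgeR's adjusted p = 0.046). Cox6b1, its common counterpart, had a log2 difference of 0.37 in Cre cells (edgeR's adjusted p = 0.049) and 0.31 in GFP cells (adjusted p = 0.098). Cox8a, whose muscle counterpart Cox8b was hardly counted, differed by 0.22 and 0.25 and passed neither test (adjusted p = 0.17 and 0.12). Cox7a1 had 0.324, 0.339, 0.395 and 0.12 CPM in Cre cells with TGF-beta, against 0.81, 1.01, 0.645 and 0.86 CPM in Cre cells, and fell by 1.49 ± 0.44 on the log2 scale (edgeR's adjusted p = 0.018). In GFP cells Cox7a1 differed by -0.95 ± 0.45 (edgeR's adjusted p = 0.13, and 0.045 with the block). Cox7a2l had log2 differences of -0.01 and -0.00 (edgeR's adjusted p = 0.94 and 1.00).

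**Figure D5:**
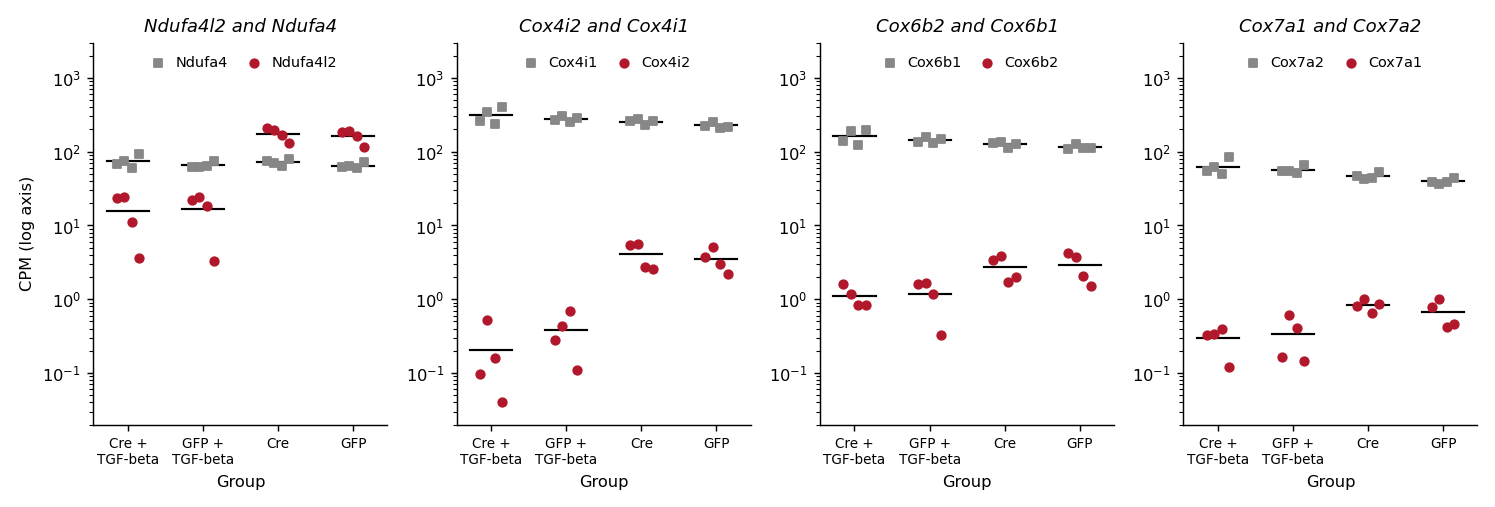
CPM by library (vertical log axes) of 4 pairs of genes, Ndufa4l2 and Ndufa4, Cox4i2 and Cox4i1, Cox6b2 and Cox6b1, and Cox7a1 and Cox7a2, with groups from Cre cells with TGF-beta, GFP cells with TGF-beta and Cre cells to GFP cells. Red dots (Ndufa4l2, Cox4i2, Cox6b2, Cox7a1) and grey squares (their counterparts) are libraries, and bars group means. Ndufa4l2 lies at 3.29 to 24.3 CPM with TGF-beta and at 115 to 210.1 CPM without it, while Ndufa4 lies at 60.5 to 93.8 CPM throughout.

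Ndufa4l2 and Cox4i2 are also known as genes of pericytes and vessel wall, so the markers of those cells stand beside them. All 5 pericyte and smooth muscle markers were tested. Their summed level was 40.0 to 80.3 CPM in Cre cells with TGF-beta and 59.9 to 99.5 CPM in GFP cells with TGF-beta, and 9.67 to 18.5 CPM in Cre cells and 12.3 to 17.2 CPM in GFP cells. Among them Cspg4 rose, by 2.59 and 2.62 on the log2 scale (edgeR's adjusted p = 1.3e-05 in each), while Kcnj8 and Abcc9, channel subunits of pericytes, fell. The values of Myh11, also of this list, are not given here. Kcnj8 had log2 differences of -2.01 and -3.78 (edgeR's adjusted p = 0.013 and 0.0010) and Abcc9 of -1.99 and -2.27 (adjusted p = 0.0062 and 0.0023), with means of at most 0.647 CPM in any group. Rgs5, the most used pericyte marker, differed by -1.36 and -1.12 and passed with the block alone (edgeR's adjusted p = 0.0037 and 0.018 there). The part of these cells in the fall of Ndufa4l2 and Cox4i2 was not tested.

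Other cell type markers moved with TGF-beta too. Of 4 myofibroblast markers 3 rose in both kinds of cell, and their summed level was 3777 to 5637 CPM in Cre cells with TGF-beta and 3162 to 5599 CPM in GFP cells with TGF-beta, against 682 to 825 CPM in Cre cells and 729 to 820 CPM in GFP cells. Of 10 fibroblast markers 7 fell in both. Of 6 macrophage and leukocyte markers and 5 endothelial markers, 2 each fell in both. Of all genes 14% were called higher and 16.3% lower in Cre cells, and 13.8% higher and 15.3% lower in GFP cells. The myofibroblast and fibroblast markers outside these counts are not named here. Cardiomyocyte markers, which would bring heart isoforms of complex IV, summed to 2.72 to 12.1 CPM in Cre cells with TGF-beta, 2.84 to 6.18 CPM in GFP cells with TGF-beta, 7.79 to 23.3 CPM in Cre cells and 5.07 to 16.6 CPM in GFP cells. Mybpc3 fell in both kinds of cell and Tnnt2 in GFP cells, whereas Myh6 and Myl7 had at most 1 count in any library. Of 4 mesothelial markers 1 fell in Cre cells and 0 were called in GFP cells (edgeR, with 1 at an unadjusted p under 0.05), and brown adipocyte markers reached at most 0.0617 CPM.

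The assembly factors of complex I among the genes of the rule had medians of 0.24 in Cre cells and 0.22 in GFP cells. Of 8, 1 rose in Cre cells, Ndufaf2 (log2 difference 0.41, edgeR's adjusted p = 0.048), and 0 were called in GFP cells, where 1 had an unadjusted p under 0.05. As shares of the 8, these lay below the 14% and 13.8% of all genes called higher. With the block 4 rose and 1 fell in Cre cells and 1 rose and 1 fell in GFP cells. In those fits 25.2% and 22.6% of all genes were called higher, and 27.3% and 26.5% lower. Ndufaf4 had 11, 11.7, 13.8 and 21.7 CPM in Cre cells with TGF-beta, against 6.92, 5.8, 7.55 and 11.3 CPM in Cre cells. Its log2 differences of 0.88 and 0.66 were called with the block alone (adjusted p = 8.4e-06 and 0.00016, against 0.052 and 0.14 without it). Ndufaf3 differed by -0.44 and -0.39 and was also called with the block alone (adjusted p = 0.0042 and 0.013, against 0.12 and 0.17).

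Genes that build, feed and replace the complexes were examined as lists, of which none was chosen without earlier results of these data in view. Of 44 assembly factors of all complexes, the 8 above included, 6 rose and 0 fell in Cre cells and 8 rose and 1 fell in GFP cells, with medians of 0.21 and 0.24. The shares called higher, 13.6% and 18.2%, were near the 14% and 13.8% of all genes. Timmdc1, needed for the membrane arm of complex I, rose by 0.71 and 0.64, and Cox17, a copper chaperone of complex IV, by 1.03 and 0.92 (edgeR's adjusted p = 0.0016 and 0.0035). Of 16 electron carrier genes outside the rule, 2 rose and 1 fell in Cre cells and 4 rose and 1 fell in GFP cells, which makes 12.5% and 25% higher. Cycs, cytochrome c itself, averaged 89.1 ± 24.4 CPM in Cre cells with TGF-beta and 48.4 ± 9.98 CPM in Cre cells, and 72.9 ± 15.5 CPM in GFP cells with TGF-beta and 39.2 ± 10.2 CPM in GFP cells (SD, n = 4 each). It rose by 0.88 and 0.90 on the log2 scale (edgeR's adjusted p = 0.0062 and 0.0058), and Coq3, of ubiquinone synthesis, by 0.64 and 0.76 (adjusted p = 0.00061 and 0.00017). Coq8a, a kinase-like protein of the same pathway, fell by 1.57 and 1.48 (adjusted p = 0.018 and 0.025).

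The machinery that expresses mitochondrial DNA is set beside the 13 genes it serves. Of 26 genes of mitochondrial replication, transcription and RNA processing, 4 rose in Cre cells and 5 in GFP cells, none fell, and the medians were 0.23 and 0.26. The shares called higher, 15.4% and 19.2%, lay little above the 14% and 13.8% of all genes. Lrpprc, which stabilises mitochondrial messenger RNA, rose by 0.82 ± 0.17 and 0.75 ± 0.17 (SE, edgeR's adjusted p = 0.0017 and 0.0032), and Elac2, which trims mitochondrial transfer RNA, by 0.50 and 0.55 (adjusted p = 0.0019 and 0.00084). Of 78 mitochondrial ribosomal proteins, 21 rose in Cre cells (26.9%) and 19 in GFP cells (24.4%), none fell, and the medians were 0.31 in each. Of 6 mitochondrial ribosomal and transfer RNA genes tested, 1 rose in Cre cells, mt-Rnr2 (log2 difference 0.80, edgeR's adjusted p = 0.036), and 0 were called in GFP cells, where 1 had an unadjusted p under 0.05. Of 12 nuclear regulators of the respiratory chain, 3 rose and 1 fell in each kind of cell. Myc rose by 1.59 and 1.66 on the log2 scale (edgeR's adjusted p = 0.00039 and 0.00029), while Esrra rose in GFP cells (0.47, adjusted p = 0.017) and differed by 0.32 in Cre cells (adjusted p = 0.083). Tfam, which packages mitochondrial DNA and starts its transcription, differed by -0.05 and -0.19 (edgeR's adjusted p = 0.81 and 0.33), and Ppargc1a had 0 to 4 counts and was not tested.

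Neighbouring pathways of energy metabolism were also counted, with no test between the lists, and the shares of all genes called were 14% higher and 16.3% lower in Cre cells and 13.8% higher and 15.3% lower in GFP cells. Of 14 citric acid cycle genes, 6 rose and 1 fell in Cre cells and 5 rose and 1 fell in GFP cells, with medians of 0.25 in each. Mdh2, malate dehydrogenase, averaged 406 ± 83.4 CPM in Cre cells with TGF-beta and 239.9 ± 19.5 CPM in Cre cells, and 387 ± 32.4 CPM in GFP cells with TGF-beta and 217 ± 20.7 CPM in GFP cells (SD, n = 4 each). Its log2 differences were 0.76 and 0.83 (edgeR's adjusted p = 0.00041 and 0.00020). Of 21 genes of mitochondrial mass, import, fission and fusion, 14 rose in each kind of cell and none fell, among them the import motor Hspa9, by 0.83 and 0.92, and the outer membrane channel Vdac2, by 0.55 and 0.58. Of 19 glycolysis genes, 2 rose and 7 fell in Cre cells and 2 rose and 4 fell in GFP cells, with medians of -0.19 and -0.09. Pfkl, a phosphofructokinase, fell by 0.72 and 0.59 on the log2 scale (edgeR's adjusted p = 3.2e-05 and 0.00021), and Pdk1, a kinase that inhibits pyruvate dehydrogenase, by 1.29 and 1.11, whereas the hexokinase Hk2 rose in both, by 1.25 in Cre cells (adjusted p = 0.0012, and 0.00030 in GFP cells).

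The comparisons of Cre with GFP cells ask what the Cre virus, given to delete Has2, did to these genes. No subunit of either genome passed edgeR's test with or without TGF-beta. Without TGF-beta, 0 of 78 nuclear-encoded and 0 of 13 mitochondrially encoded subunits were called, 0 of each had an unadjusted p under 0.05, and DESeq2 called 0 of each. With TGF-beta the calls were 0 by both tools, with 3 nuclear-encoded and 2 mitochondrially encoded subunits at an unadjusted p under 0.05 by edgeR. Over all genes 0% were called by edgeR in both comparisons, and with the preparation as a block 0.164% were called higher and 0.00654% lower without TGF-beta and 0.0654% higher and 0% lower with it, none of them a subunit. With the block, 8 nuclear-encoded subunits had an unadjusted p under 0.05 without TGF-beta and 19 with it.

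The nuclear-encoded subunits nevertheless leaned to higher values in cells with the Cre virus. With TGF-beta the median log2 difference was 0.16 (range -0.83 to 0.57), with 67 of 78 (85.9%) above 0, against 49% of all genes, and 10 (12.8%) were higher in 4 of 4 preparations, against 10.1% of all genes. Without TGF-beta the median was 0.14 (range -0.07 to 0.30), with 75 of 78 (96.2%) above 0, against 48% of all genes, and 52 (66.7%) were higher in 4 of 4 preparations, against 12.7% of all genes. The lean was spread over the complexes, with medians with TGF-beta of 0.17 for complex I, -0.00 for complex II, 0.19 for complex III, 0.17 for complex IV and 0.16 for complex V. Without TGF-beta the medians were 0.14, 0.09, 0.15, 0.15 and 0.16 in the same order. Within preparations 1 to 4 the median was 0.03, 0.20, -0.06 and 0.41 with TGF-beta, and 0.20, 0.03, 0.11 and 0.21 without it. With TGF-beta it was thus above 0.03 in preparations 2 and 4 alone, and over the 4 it was 0.05 without the Cre library with TGF-beta of preparation 4 and 0.26 without that of preparation 3.

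Transcript length moved with this lean. Over 15259 genes the log2 difference ran against transcript length, with Spearman's rho of -0.31 with TGF-beta and -0.43 without it, a description across genes of the same libraries. The nuclear-encoded subunits are short, with a median transcript of 1003 bases against 3134 over all genes. The 2711 genes of 738 to 1838 bases had a median of 0.09 with TGF-beta and 0.08 without it. With the trends of length and GC content removed and the preparation as a block, the median of the subunits was 0.04 with TGF-beta and 0.07 without it, and 0 of 78 were called in each. For TGF-beta against none rho was weaker, at -0.12 in Cre cells and -0.13 in GFP cells.

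Members named for their size of difference did not pass either. With TGF-beta Ndufa5, a supernumerary subunit of complex I, had 12.9, 17.9, 12.9 and 24.4 CPM in Cre cells with TGF-beta, against 10.2, 8.67, 12.9 and 14.2 CPM in GFP cells with TGF-beta, with overlap. Its log2 difference of 0.57 was the highest of the nuclear-encoded subunits (edgeR's adjusted p = 1.00, and 0.16 with the block). Cox4i2 had the lowest, -0.83. Without TGF-beta the highest was that of Cox7a1, 0.30, at 0.645 to 1.01 CPM in Cre cells against 0.419 to 1.01 CPM in GFP cells. Ndufa4l2 lay at 132 to 210.1 CPM in Cre cells against 115 to 191 CPM in GFP cells.

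The mitochondrially encoded subunits were described in the same way, and no test of a difference between the genomes was run. With TGF-beta their median log2 difference was 0.08 (range -0.43 to 0.63), with 7 of 13 above 0, and without TGF-beta it was -0.12 (range -0.61 to 0.21), with 2 of 13 above 0. With TGF-beta 3 of 13 (23.1%) were higher in 4 of 4 preparations, against 10.1% of all genes, and 1 (7.69%) was higher without overlap, against 0.824% of all genes. Without TGF-beta 0 of 13 were higher in 4 of 4 preparations. The median without TGF-beta depended on preparation 4, being 0.10 without the GFP library of preparation 4 and -0.30 without the Cre library of preparation 4. The mitochondrial sum in Cre cells was 0.988, 0.883, 1.16 and 0.895 times that in GFP cells with TGF-beta, and 0.911, 1.13, 0.925 and 0.870 times without it, in preparations 1 to 4. With the trends of length and GC content removed and the preparation as a block, 1 of 13 was called lower in Cre cells with TGF-beta and the median there was -0.48. The gene called was mt-Nd2 (edgeR's adjusted p = 0.031), in a fit where 0.242% of all genes were called higher and 0.0196% lower.

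Whether the response to TGF-beta differed between Cre and GFP cells was tested as the difference of the differences. By edgeR 0 of 78 nuclear-encoded and 0 of 13 mitochondrially encoded subunits were called, with 0 of each at an unadjusted p under 0.05, and over all genes 0% were called. DESeq2 also called 0 of each, with 0 and 1 at an unadjusted p under 0.05. The median difference was 0.03 on the log2 scale for the nuclear-encoded and 0.19 for the mitochondrially encoded subunits, with 47 of 78 and 10 of 13 above 0. The smaller count of mitochondrial genes called in GFP cells than in Cre cells is therefore not shown to be a difference between the responses.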

How the data were processed

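Trizol extraction, DNase and NEBNext Ultra II library preparation are named, per the labels' protocols. For 16 libraries the authors deposited whole-number read counts per gene. FastQC 0.10.1, HTSeq 0.10.0 and the builds mm39 and GRCm39 are named, per the submitters' processing notes. Not given in the sources used here are aligner, annotation, strand setting and the handling of reads fitting several places. Genes that overlap, such as mt-Atp8 and mt-Atp6, may share reads. Gene identifiers were paired with symbols and lengths by GENCODE M21 (GRCm38), which matched 52133 of 55414.

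The members and lists were chosen with earlier results of these data known. Counts were tested over all genes with edgeR 4.0.16 in R 4.3.3 (filterByExpr with a minimum count of 10, TMM scaling, quasi-likelihood test, Benjamini-Hochberg adjustment over 15285 genes, threshold 0.05), with 1 model of all 4 groups and no block. The model was also run on simulated data with the same spread for every gene and preparation effects shared by all groups. That simulation holds no preparation that responds unlike the others, so it does not vouch for the calls made here. CPM and RPKM were computed from the counts over effective library sizes and, for RPKM, merged exon length. Nuclear copies were sought with blastn 2.17.0 at 98% identity over at least 100 bases, among annotated GENCODE M21 transcripts and not in the genome sequence. Samples with the same replicate number shared a preparation code in their names. Their deviations from group means correlated at 0.323 to 0.838 (median 0.497) in 24 pairs. In 72 other pairs the values were -0.679 to 0.292 (median -0.130). On both grounds the number was taken as pairing. Libraries of a group differed beyond sampling noise (chi-square per gene 7.24 to 217), and none was counted as a duplicate. Without the block, the p-values measure against the spread between the 4 preparations and no more. With it, they measure against the spread left once differences between preparations are taken out.

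Alternatives were the preparation as a block, that block with length and GC trends removed, DESeq2 1.42.0, other scalings and filters, sex as a covariate, only the libraries compared, and leaving out libraries or preparations. Of those, leaving out a preparation without the block and setting aside copied mitochondrial genes were chosen after seeing the data. The rule for naming took the mitochondrially encoded genes, isoform pairs and listed core members whatever their result, per comparison up to 6 called nuclear-encoded members each way by adjusted p with the highest and lowest log2 difference, and up to 3 genes per list and comparison. Tfam, Rgs5 and other markers were named beyond it, after their values were seen. Depth, at 17.9 to 48.7 M counts, limits the rare isoforms most.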

Additional observations from a re-analysis of the deposited data

Results flagged for a closer look

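Of 148 groups of 4 libraries examined, 10 held a library whose gap to the nearest other took up most of the group's range, and chance alone gives about 1 in 20 groups. In Cre cells the summed level of the nuclear-encoded subunits was lowest in preparation 3, at 6063 CPM, with the nearest other library at 6609 CPM. In Cre cells the ratio of mitochondrial to nuclear summed CPM was highest in preparation 4, at 0.932 against 0.724 in the nearest other. mt-Nd1 in GFP cells was highest in preparation 4, at 664 CPM against 367 CPM in the nearest other. mt-Atp6 in Cre cells was also highest in preparation 4, at 6.66 CPM against 3.21 CPM. Preparation 4 gave the highest Uqcrc1 in Cre cells with TGF-beta, at 209.6 CPM against 154 CPM, and the highest Ndufa4 in GFP cells with TGF-beta, at 73.8 CPM against 63.0 CPM. mt-Nd3, a gene with a nuclear copy, was highest in preparation 2 of GFP cells with TGF-beta, at 2.05 CPM against 1.21 CPM. In the same library Ndufs1 was lowest of its group, at 70.5 CPM against 77.9 CPM. Sdhc in GFP cells was highest in preparation 2, at 115 CPM against 93.4 CPM. Sdhd in Cre cells with TGF-beta was lowest in preparation 3, at 55.9 CPM against 64.9 CPM.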

How the results depend on the processing

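Numbers of nuclear-encoded and mitochondrially encoded subunits called with TGF-beta, 24 of 78 and 10 of 13 in Cre cells and 19 and 5 in GFP cells, moved by at most 1.5 times under DESeq2 (28, 10, 23 and 7), other scalings, sex as a covariate and a stricter filter. In Cre cells the count of nuclear-encoded subunits was 13 with no filter on low counts and 12 when only the libraries compared were fitted. Over all genes, 1707 of 29129 and 1532 of 14861 were called higher there, and 2193 and 2015 lower. With the preparation as a replicate block, the pairing gave 47 nuclear-encoded subunits in Cre cells and 44 in GFP cells, 8 mitochondrially encoded in GFP cells, and no change of a call in the Cre against GFP comparisons. With length and GC trends removed as well, the counts were 52 and 5 in Cre cells and 56 and 9 in GFP cells, and 1 mitochondrially encoded subunit, mt-Nd2, was called lower in Cre cells with TGF-beta than in GFP cells with TGF-beta. There mt-Nd6 turned to -0.055 in Cre cells (edgeR's adjusted p = 0.760). Among the 8 mitochondrially encoded genes without a near-complete copy in the annotation, 6 were called in Cre cells, mt-Atp8 included, and 3 in GFP cells. Leaving out libraries or preparations gave 9 to 50 nuclear-encoded and 2 to 13 mitochondrially encoded subunits in Cre cells, and 5 to 45 and 0 to 13 in GFP cells. With the block and without preparation 1, 2, 3 or 4 the nuclear-encoded counts were 46, 25, 50 and 39 in Cre cells and 26, 34, 38 and 45 in GFP cells. In Cre cells 19.9%, 19%, 21.9% and 28% of all genes were called higher in these fits, and 22.6%, 22.3%, 23.1% and 28.6% lower. In GFP cells the shares were 16.7%, 18.5%, 19.6% and 25.3% higher and 20.5%, 21.1%, 20.9% and 27.7% lower. Without the block and preparation 4 GFP cells had 22 nuclear-encoded subunits called, and Cre cells had 43 without the library with TGF-beta of preparation 3. The cause of these movements was not tested beyond the smaller number of libraries or genes that some settings leave. The medians of the TGF-beta comparisons kept their sign under all these alternatives. With 3 to 49 counts per library Cox7a1, and with 1 to 14 counts Cox4i2 under TGF-beta in Cre cells, rest on few reads.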

Other observations

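Cox6a2 and Cox8b, heart and muscle isoforms outside the tests, averaged 0.255 and 0.00562 CPM over the 16 libraries. The mitochondrial ribosomal RNA genes took 0.0745% to 0.0935% of counts in Cre cells with TGF-beta, 0.0426% to 0.0863% in GFP cells with TGF-beta, 0.0377% to 0.0821% in Cre cells and 0.0296% to 0.0805% in GFP cells.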
